A study of Homo sapiens with 9 samples.

Results

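The human mitochondrial genome encodes 37 genes, and all 37 were rows of the deposited expression tables, out of 58735 genes in all. They were chosen by their chromosome, MT, and not by any measured value. They comprise 13 protein genes, 2 ribosomal RNA (rRNA) genes and 22 transfer RNA (tRNA) genes, and their coordinates matched GENCODE release 29 on GRCh38 for 37 of 37 genes. The cells were PaTu 8988t, an established human line from a metastasis of pancreatic adenocarcinoma, cultured in DMEM with fetal bovine serum. They were studied on 3 kinds of extracellular matrix, with 3 libraries of each kind. The control matrix is labelled Ctrl ECM, the second CPXM2WT OE ECM and the third CPXM2R213A OE ECM, and the groups are called control, wild type and R213A here. CPXM2 is a secreted protein of the M14 carboxypeptidase family, and R213A is a mutant of it. The labels do not name the cells that made the matrices, give no time on the matrix and leave unsaid if the 3 libraries of a group are separate cultures. The p-values therefore measure the spread among the libraries at hand, part of which may be technical.

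The mitochondrial genome is a small circle that is transcribed from both strands into long precursor RNAs. Most of its tRNA genes lie between the longer genes, and excision of the tRNAs frees the mRNAs and rRNAs. The proteins are core subunits of respiratory complexes I, III and IV and of ATP synthase, and all other subunits of these complexes come from the nucleus. In humans most of the mRNAs receive a short poly(A) tail, whereas the tRNAs end in CCA, and the libraries were made with a kit that selects poly(A) RNA. In bulk RNA, fewer mitochondrial genomes or cells and less RNA per genome or cell cannot be told apart.

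The deposited values are FPKM, fragments per kilobase of gene length scaled by library. They lie in 2 tables: a 4-library table with control 1, wild type 1, R213A 1 and R213A 3, and a 5-library table with control 2, control 3, wild type 2, wild type 3 and R213A 2. No source used here says what the tables mark. FPKM times the listed gene length gave back whole reads for 100% of the values above 0, within 0.01 reads, and the totals ran from 15951927 to 18312806 reads per library. The divisor used for a library was not this total but 0.850 to 1.09 times it, and no source used here gives that step, so FPKM compares libraries only under it, while shares and ratios within a library do not depend on it. Of 8 epithelial markers 5 had a mean of at least 1 FPKM, against 0 of those of fibroblasts, immune, endothelial and fat cells, whose summed levels stayed at or under 1.03 FPKM in each library. Among the epithelial markers KRT7, KRT19 and CDH1 stayed at or under 0.468 FPKM. Control 2 and wild type 1 stood apart in their mitochondrial rRNA, as described below.

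Most tRNA reads came from a few short genes annotated on the minus strand, so their sequences are shown here. MT-TC (tRNA for cysteine, MT:5761-5826), MT-TN (asparagine, MT:5657-5729), MT-TP (proline, MT:15956-16023) and MT-TY (tyrosine, MT:5826-5891) were the 4 tRNA genes with the highest mean level. MT-TA (alanine, MT:5587-5655), also on the minus strand, lies 1 base from MT-TN and had almost no reads. The sequences are those of the GENCODE release 29 transcripts on GRCh38, written 5′ to 3′ on the minus strand, with the anticodon in capitals.
MT-TC: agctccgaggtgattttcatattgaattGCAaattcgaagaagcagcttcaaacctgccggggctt
MT-TN: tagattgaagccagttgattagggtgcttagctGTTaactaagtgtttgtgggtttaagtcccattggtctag
MT-TP: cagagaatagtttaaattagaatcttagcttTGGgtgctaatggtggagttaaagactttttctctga
MT-TY: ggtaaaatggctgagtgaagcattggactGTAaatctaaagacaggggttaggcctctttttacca
MT-TA: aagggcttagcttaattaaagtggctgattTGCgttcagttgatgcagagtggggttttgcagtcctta

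The other sequence shown is the stretch shared by the ATP synthase genes MT-ATP8 and MT-ATP6 (MT:8366-8572 and MT:8527-9207, plus strand). Both proteins are read from it in different frames. It spans MT:8527-8572, 46 bases, which is 22.2% of MT-ATP8 and 6.76% of MT-ATP6, and the sources used here do not say how fragments there were assigned. Capitals mark the start codon of MT-ATP6 and the stop codon of MT-ATP8.
MT-ATP8 and MT-ATP6: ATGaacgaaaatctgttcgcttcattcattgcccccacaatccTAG

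Of all reads, the 37 genes together gave 2.38, 1.87 and 2.29% in control, 2.19, 2.17 and 1.97% in wild type and 1.81, 1.98 and 2.11% in R213A, listing libraries 1, 2 and 3 of each group in that order, as throughout. Exact binomial 95% intervals, which cover counting error only, ran from 1.80% to 1.82% for the lowest library and from 2.37% to 2.39% for the highest. The 3 groups overlapped: control held both the highest and the next-to-lowest share. The means were 2.18% ± 0.273 (SD, n = 3) in control, 2.11% ± 0.124 in wild type and 1.97% ± 0.151 in R213A. The differences between these means were within the spread of the control libraries.

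The makeup of these reads varied far more than their total. Of the mitochondrial reads, the 2 rRNA genes gave 4.44, 37.3 and 14.1% in control, 35.3, 16.9 and 15.9% in wild type and 6.01, 17.6 and 16.0% in R213A. Control 2 and wild type 1 were the highest, each above 35%, control 1 and R213A 1 the lowest, and the other 5 libraries lay between 14.1% and 17.6%. So the control group alone spanned the range from lowest to highest. The 13 protein genes made up 95.3, 62.3 and 85.5% in control, 63.9, 82.6 and 83.6% in wild type and 93.3, 81.9 and 83.3% in R213A, highest where the rRNA was lowest. The 22 tRNA genes held 0.302% to 0.816% of the mitochondrial reads. The group means of the rRNA share were 18.6% ± 16.9 (SD, n = 3) in control, 22.7% ± 10.9 in wild type and 13.2% ± 6.29 in R213A, so no 2 groups differed by more than the spread within control.

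**Figure D1:**
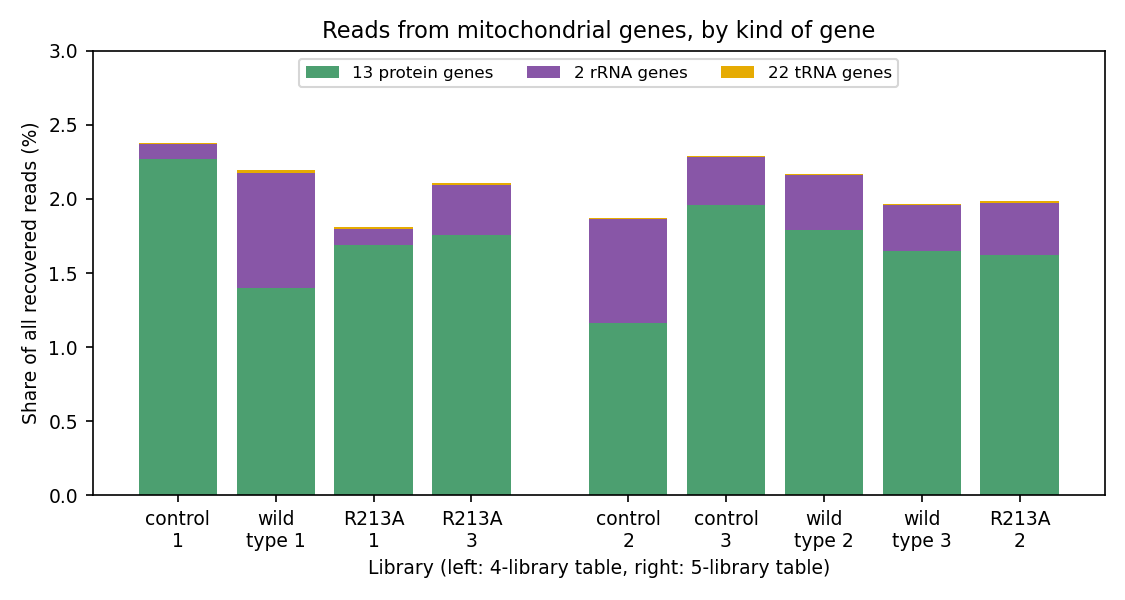
Share of all recovered reads, in percent, from the 13 protein genes, 2 rRNA genes and 22 tRNA genes of the mitochondrial genome, stacked in 1 bar for each of the 9 libraries, with the 4-library table on the left and the 5-library table on the right. The full bars run from 1.81% to 2.38%, and the rRNA segment is widest in wild type 1 and control 2.

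MT-RNR2, the 16S rRNA of the large mitochondrial ribosomal subunit (MT:1671-3229), was at 507, 3991 and 1755 FPKM in control, 4008, 1967 and 1683 in wild type and 603, 1842 and 1750.3 in R213A. MT-RNR1, the 12S rRNA of the small subunit (MT:648-1601), was at 186, 1594 and 425 FPKM in control, 1095, 539 and 438 in wild type and 354, 531 and 623 in R213A. Both were highest in control 2 and wild type 1 and lowest in control 1 and R213A 1. The ratio of MT-RNR1 to MT-RNR2 ran from 0.242 to 0.587, a far narrower span than that of MT-RNR2 to the mRNA MT-CO1, which ran from 0.165 to 1.66. Of 9 other RNAs that mostly lack a poly(A) tail, chosen after the values were seen, the signal recognition particle RNA RN7SL2 was the one with more than 26 reads in all. Its level was 337, 268 and 311 FPKM in control, 369, 413 and 268 in wild type and 486, 226 and 306 in R213A, highest in R213A 1. With 1 RNA of this list measured, the list gives no measure of how much RNA without a poly(A) tail a library held. Why the mitochondrial rRNA varied was not tested.

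Among the mRNAs the 3 core subunits of complex IV, cytochrome c oxidase, had the highest mean levels per length. MT-CO1 (MT:5904-7445) was at 3079, 3237 and 3448 FPKM in control, 2414, 3264 and 2946 in wild type and 2458, 2940.4 and 2969 in R213A. Its highest library was 1.43 times its lowest, the narrowest span of the 13 protein genes. All 3 R213A libraries lay under all 3 controls while wild type overlapped both. The share of all genes that separate in this way was not counted. In the limma fit described below, R213A differed from control by a log2 difference of -0.16 (adjusted p = 0.830). MT-CO2 (MT:7586-8269) was at 3948, 1720.2 and 3245 FPKM in control, 2753, 2837 and 2747 in wild type and 6544, 2553 and 3929 in R213A. MT-CO3 (MT:9207-9990) was at 3442, 1127 and 2779 FPKM in control, 2165, 2473 and 2353 in wild type and 4410.0, 2297 and 3325 in R213A. Both were highest in R213A 1 and lowest in control 2, and the groups overlapped. The ratio of MT-CO3 to MT-CO2 stayed between 0.655 and 0.900, whereas MT-CO2 to MT-CO1 ran from 0.531 to 2.66.

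The ATP synthase genes differed from each other in level by more than an order of magnitude. MT-ATP6, subunit a of the proton channel (MT:8527-9207), was at 2528, 979 and 1827 FPKM in control, 1128, 1593 and 1523 in wild type and 2044, 1471 and 1836 in R213A. Control 1 was highest and control 2 lowest, so the controls enclosed all other libraries. MT-ATP8, a small subunit of the membrane part (MT:8366-8572), was at 105, 42.4 and 58.8 FPKM in control, 27.0, 53.1 and 58.1 in wild type and 30.3, 36.2 and 39.7 in R213A. Each R213A library lay under each control, and wild type 1 was the lowest of all. The share of all genes that separate in this way was not counted. In the limma fit described below, R213A differed from control by a log2 difference of -0.85 (adjusted p = 0.690). The ratio of MT-ATP8 to MT-ATP6 was 0.0390 ± 0.00600 (SD, n = 3) in control, 0.0318 ± 0.00723 in wild type and 0.0203 ± 0.00502 in R213A, with the shared stretch shown above counted in an unknown way. Wild type and R213A overlapped, with wild type 1 at 0.0239 and R213A 2 at 0.0246. The 2 tables enter these group means in different proportions, and the ratio was not tested.

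Complex I, NADH dehydrogenase, takes 7 subunits from the mitochondrial genome. MT-ND4 (MT:10760-12137) was at 2218, 1788 and 1935 FPKM in control, 1285, 1771 and 1552 in wild type and 1732, 1573 and 1677 in R213A. All 3 controls lay above all libraries of both other groups, by a narrow margin between control 2 and wild type 2. The share of all genes that separate in this way was not counted. In the limma fit described below, wild type differed from control by a log2 difference of -0.37 (adjusted p = 0.757). R213A differed from control by -0.25 (adjusted p = 0.738). MT-ND1 (MT:3307-4262) was at 1273, 476 and 1211 FPKM in control, 1126, 1092 and 982 in wild type and 916, 967 and 1117 in R213A, with control 2 lowest and the other 8 libraries between 916 and 1273. MT-ND2 (MT:4470-5511) was at 1110.4, 489 and 1160.0 FPKM in control, 634, 1091 and 956 in wild type and 673, 964 and 719.7 in R213A. Control 2, wild type 1, R213A 1 and R213A 3 were the 4 low libraries of MT-ND2, which come from all 3 groups. MT-ND3 (MT:10059-10404) was at 1091, 466 and 955 FPKM in control, 976, 996 and 923 in wild type and 1594, 906 and 922 in R213A. R213A 1 was high and control 2 low, and the other 7 libraries were close together. MT-ND5 (MT:12337-14148) was at 439.9, 298 and 377 FPKM in control, 191, 367 and 303 in wild type and 346, 318 and 254 in R213A. The groups overlapped, with wild type 1 lowest.

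MT-ND4L, another membrane subunit of complex I, whose gene shares 7 bases with that of MT-ND4 (MT:10470-10766), varied most among the mRNAs. It was at 881, 1163 and 1273 FPKM in control, 244, 1262 and 1072 in wild type and 189.9, 1072 and 291 in R213A. Its levels separated by table and not by group: each library of the 5-library table lay above each of the 4-library table, and within the latter control 1 was above wild type 1, R213A 1 and R213A 3. Its ratio to MT-ND4, which needs no scaling between libraries, was 0.651 to 0.713 in the 5-library table and 0.110 to 0.397 in the 4-library table.

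MT-ND6 is the one protein gene annotated on the minus strand (MT:14149-14673), end to end with MT-ND5 on the plus strand. It was at 673, 279 and 388 FPKM in control, 385, 339.7 and 294 in wild type and 627, 297 and 481 in R213A. Control 1 and R213A 1 were highest and control 2 lowest, so the groups overlapped. The ratio of MT-ND6 to MT-ND5 was 0.925 to 1.03 in the 5-library table and 1.53 to 2.02 in the 4-library table. No source used here gives the strand setting of the counting, and reads of a gene and of RNA from the opposite strand cannot be told apart. MT-CYB, cytochrome b of complex III (MT:14747-15887), was at 1429.8, 498 and 1287 FPKM in control, 573, 1137 and 1079 in wild type and 1051, 998 and 837 in R213A, with control 2 and wild type 1 low and the groups overlapping.

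**Figure D2:**
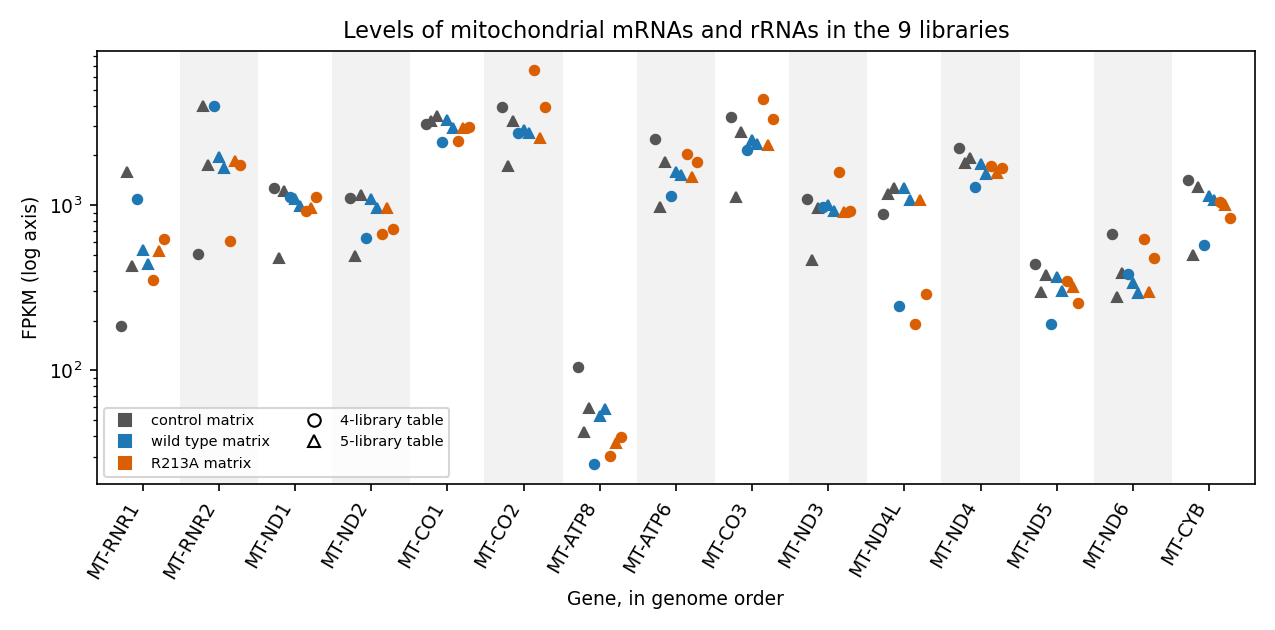
FPKM on a log axis of the 13 mRNAs and 2 rRNAs in genome order, 1 point per library, coloured by matrix, with circles for the 4-library and triangles for the 5-library table. MT-CO1 has the tightest points of the mRNAs, MT-RNR2 spans 507 to 4008 FPKM, and the points of MT-ND4L split by table.

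Ordered by mean level over the 9 libraries, the genes ran MT-CO2, MT-CO1, MT-CO3, MT-RNR2, MT-ND4, MT-ATP6, MT-ND1, MT-CYB, MT-ND3, MT-ND2, MT-ND4L, MT-RNR1, MT-ND6, MT-ND5 and MT-ATP8. Only 2 of the 14 steps in that order held in 9 of 9 libraries: MT-ATP6 above MT-ND1, and MT-ND5 above MT-ATP8. MT-CO3 exceeded MT-RNR2 in 7 of 9 libraries and MT-RNR1 exceeded MT-ND6 in 7 of 9. MT-ND1 exceeded MT-CYB, the next in this order, in only 2 of 9 libraries, so in most libraries MT-CYB was the higher. The remaining neighbouring pairs kept their order in 3 to 6 libraries and are not resolved by these data. MT-CO2, for example, was above MT-CO1 in 4 of 9 libraries.

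The reads of the 13 protein genes were also summed by complex, where complex III is MT-CYB alone. Complex IV took 48.9% to 59.1% of these reads, complex I 27.8% to 35.8%, ATP synthase 5.23% to 8.41% and complex III 4.40% to 7.87%. R213A 1 had the most complex IV reads and the fewest complex I reads. MT-CO1 alone held 19.1% of protein-gene reads in R213A 1 and 38.6% in control 2, while MT-CO2 held 22.6% and 9.11% in the same libraries. Control 2 also held the most MT-ND4, 19.1% against 12.0% to 14.7% in the other 8 libraries.

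Most tRNA genes were near the limit of detection. At these depths 1 read on a gene of 70 bases is worth 0.739 to 1.05 FPKM, and a gene at 0 reads may still reach 3 reads by counting error. Of the 22 tRNA genes, 5 had a mean of at least 20 FPKM, 13 lay between 1.17 and 17.0 FPKM and 4 lay below 1 FPKM. The 8 tRNA genes on the minus strand took 85.3% to 96.2% of tRNA reads, and MT-TC, MT-TN, MT-TP and MT-TY alone 84.7% to 95.9%. All 4 are among the sequences printed above.

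MT-TC was at 489.7, 426 and 662 FPKM in control, 1662, 628 and 655 in wild type and 1309, 646 and 1288 in R213A, a level per length within the range of the mRNAs. Wild type 1, R213A 1 and R213A 3 lay well above the other 6 libraries, and these 3 are in the 4-library table with control 1, which was not high. MT-TN, 31 bases from MT-TC, was at 119.8, 168 and 229 FPKM in control, 468, 247 and 218 in wild type and 384, 219 and 340.4 in R213A and was high in the same 3 libraries. The ratio of MT-TC to MT-TN stayed between 2.54 and 4.09, while MT-TC to MT-CO1 ran from 0.132 to 0.689. MT-TY, which shares 1 base with MT-TC, was at 69.5, 93.2 and 121 FPKM in control, 31.3, 92.1 and 77.0 in wild type and 30.2, 85.8 and 37.1 in R213A and was lowest in the 3 libraries in which MT-TC was highest. MT-TC and MT-TY, neighbours on 1 strand, thus stood at opposite ends in these 3 libraries. Among the other 6 libraries they did not run in opposite directions throughout, as control 3 was the highest of the 6 for both.

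MT-TP was at 148, 299 and 160.1 FPKM in control, 230.5, 203 and 152 in wild type and 293, 199 and 333 in R213A, with overlapping groups and no such split. MT-TA had 7 reads in all 9 libraries. On the plus strand MT-TL1 (leucine, MT:3230-3304), between MT-RNR2 and MT-ND1, was the one tRNA gene with a mean above 20 FPKM. It was at 56.9, 39.0 and 111 FPKM in control, 23.4, 102 and 79.1 in wild type and 18.7, 72.5 and 21.0 in R213A, and wild type 1, R213A 1 and R213A 3 were again the lowest. Its ratio to MT-ND1 was 0.0750 to 0.0938 in the 5-library table and 0.0188 to 0.0447 in the 4-library table.

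The other 13 tRNA genes that reached a mean of 1 FPKM had at most 51 reads in a library and a median of 3. MT-TR (arginine) ran from 2.44 to 31.8 FPKM and MT-TH (histidine) from 2.30 to 54.5. MT-TG (glycine) ran from 2.34 to 15.2, MT-TE (glutamic acid) from 1.77 to 13.1 and MT-TF (phenylalanine) from 1.61 to 8.31. MT-TT (threonine) ran from 0.846 to 21.2, with the highest value in R213A 1. MT-TV, MT-TI, MT-TQ, MT-TM, MT-TK, MT-TD and MT-TW were at 0 reads in at least 1 library, and their highest levels were 9.71, 8.90, 6.20, 9.85, 8.87, 5.60 and 5.37 FPKM. The 4 genes below a mean of 1 FPKM were MT-TA, MT-TS1, MT-TL2 and MT-TS2, the last of which had 0 reads in each library, an upper limit of 3 reads per library.

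**Figure D3:**
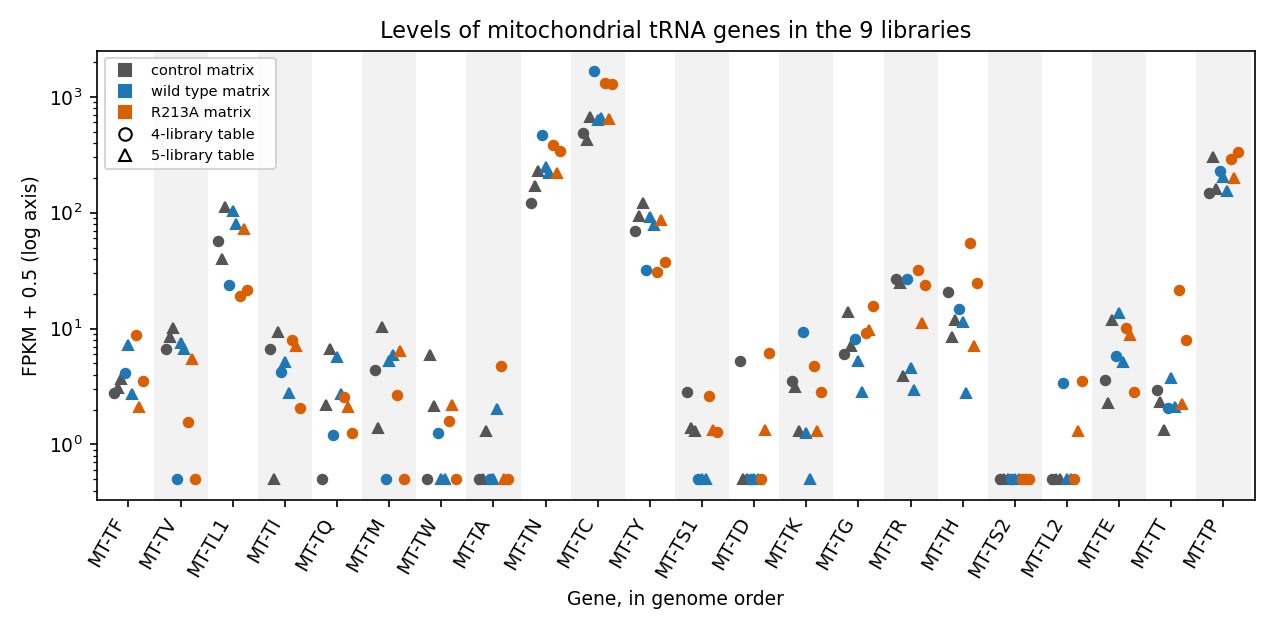
FPKM plus 0.5 on a log axis of the 22 tRNA genes in genome order, 1 point per library, coloured by matrix, with circles for the 4-library and triangles for the 5-library table. MT-TC, MT-TN and MT-TP stand at 119.8 FPKM or higher in each library, and most of the other genes lie at a few FPKM or at 0 (plotted at 0.5).

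The groups were compared with limma on log2(FPKM + 1), with the table as a term, so that differences were formed within tables, for the 11193 genes whose mean reached 1 FPKM. This scale understates the changes of low genes. In this fit 33 of the 37 genes took part: 13 protein genes, 2 rRNA genes and 18 tRNA genes.

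On the wild type CPXM2 matrix no mitochondrial transcript passed the test against the control matrix. Called at an adjusted p under 0.05 were 0 of 33, and 0% of all genes, and the smallest adjusted p from limma was 0.757. At an unadjusted p under 0.05 there were 3 of 33, beside 4.49% of all genes. They were MT-TV, with a log2 difference of -1.20 (SE 0.45), MT-TY with -0.60 (SE 0.24) and MT-TN with 0.81 (SE 0.35), each at an adjusted p of 0.757 in limma. MT-TV is the tRNA for valine, between the rRNA genes, and was at 6.18, 7.94 and 9.71 FPKM in control, 0, 6.96 and 6.14 in wild type and 1.07, 4.97 and 0 in R213A. Its low libraries were wild type 1, R213A 1 and R213A 3, at 0 or 1 read. Without control 1 the 3 differences were -0.52, -0.34 and 0.29, and without wild type 1 they were -0.65, -0.45 and 0.48. Without control 2 they were -1.52, -0.79 and 0.88, and without control 3 MT-TN was at 1.13.

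The wild type against control differences of the mRNAs were not alike in the 2 tables. In the 4-library table, 1 library against 1, 0 of 13 mRNAs were higher in wild type, and the median of their differences was -0.80. In the 5-library table, 2 libraries against 2, 8 of 13 were higher, their median then being 0.22, or -0.20 without control 2. Of the 33 genes 12 were higher in the 4-library table and 17 in the other, beside 46.0% and 47.7% of all genes. Higher in both were 5 of 33, all tRNA genes, beside 22.5% of all genes, and lower in both were 8 of 33, beside 28.8%. The rRNAs differed by a median of 2.76 in the 4-library table, where wild type 1 was set against control 1, and of -0.65 in the 5-library table, or 0.12 there without control 2.

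Set against control 1, 10 of 33 were at least 2-fold lower in wild type 1, beside 8.84% of all genes. The mRNAs among them were MT-ATP8 (-1.93), MT-ND4L (-1.85), MT-CYB (-1.32), MT-ND5 (-1.20) and MT-ATP6 (-1.16), as log2 differences. At least 2-fold higher were 5 of 33, beside 7.79% of all genes, namely MT-RNR2 (2.98), MT-RNR1 (2.55), MT-TN (1.96), MT-TC (1.76) and MT-TK (1.29). In the 5-library table the same 5 mRNAs differed by 0.15, -0.06, 0.47, -0.01 and 0.22, and without control 2 by -0.08, -0.13, -0.22, -0.17 and -0.23. These are differences between single libraries or pairs and carry no test.

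With the R213A matrix the result against control was the same in number: 0 of 33 called, beside 0% of all genes, with a smallest adjusted p of 0.690 from limma. At an unadjusted p under 0.05 there were 4 of 33, beside 3.05% of all genes. MT-TV differed by -1.33 (SE 0.47), MT-TY by -0.62 (SE 0.25), MT-TT by 1.33 (SE 0.56) and MT-ND4L by -0.94 (SE 0.41), each at an adjusted p of 0.690 in limma. Without control 1 MT-TV was at -0.43, MT-TY at -0.28, MT-TT at 1.15 and MT-ND4L at -0.16, and without control 2 they were at -1.60, -0.78, 1.51 and -1.15. MT-TT was at 2.42, 1.85 and 0.846 FPKM in control, 1.57, 3.23 and 1.60 in wild type and 21.2, 1.73 and 7.41 in R213A, highest in R213A 1 and R213A 3. Its difference was 0.79 without R213A 1 and 2.31 without R213A 2.

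By table, 3 of 13 mRNAs were higher in R213A than in control in the 4-library table (median -0.38) and 7 of 13 in the 5-library table (median 0.11, or -0.30 without control 2). Of all 33 genes 17 and 16 were higher, beside 47.8% and 46.6% of all genes. Higher in both tables were 8 of 33, beside 21.6% of all genes, and lower in both 8 of 33, beside 27.1%. The mRNAs higher in both tables were MT-CO2, MT-CO3 and MT-ND3. Without control 2 they were lower in R213A in the 5-library table, by log2 differences of -0.35, -0.27 and -0.08. Those lower in both were MT-CO1, MT-ND4, MT-ND6, MT-ND4L, MT-ND5 and MT-ATP8. At least 2-fold higher in the 4-library table were 7 of 33, both rRNAs and 5 tRNAs, beside 5.22% of all genes. At least 2-fold lower were 7 of 33, beside 3.18%, of which MT-ND4L (-1.90) and MT-ATP8 (-1.58) were mRNAs.

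Between the 2 CPXM2 matrices 0 of 33 were called, beside 0% of all genes, with a smallest adjusted p of 0.996 from limma. An unadjusted p under 0.05 was reached by 1 of 33, beside 1.05% of all genes: MT-TG, lower in wild type than in R213A by a log2 difference of -1.03 (SE 0.41, adjusted p = 0.996 in limma). It was at 5.49, 13.4 and 6.57 FPKM in control, 7.61, 4.70 and 2.34 in wild type and 8.67, 9.25 and 15.2 in R213A. All 3 wild type libraries lay under all 3 R213A libraries, and control overlapped both. The share of all genes that separate in this way was not counted. The mRNAs were higher in wild type for 2 of 13 in the 4-library table (median -0.41) and for 13 of 13 in the 5-library table (median 0.08). Over all 33 genes 11 and 19 were higher, beside 47.1% and 53.1% of all genes. Higher in both tables were 4 of 33, beside 22.9% of all genes, and lower in both 7 of 33, beside 22.7%, all of them tRNA genes. At least 2-fold higher within the 4-library table were 3 of 33, beside 2.44% of all genes, and 3 of 33 at least 2-fold lower, beside 4.07%.

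The precision behind these comparisons was low for mitochondrial genes. The 95% interval of a log2 difference reached a median of 0.90, 0.93 and 0.93 to either side for the 33 genes in the 3 comparisons, against 0.48, 0.50 and 0.50 for all genes tested. For MT-CO1 the wild type against control difference was -0.19, with an interval from -0.79 to 0.41. For MT-RNR2 it was 0.63, from -0.91 to 2.18, and leaving out wild type 1 turned it to -0.28 while leaving out control 2 raised it to 1.26. The comparisons against control share the control libraries.

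**Figure D4:**
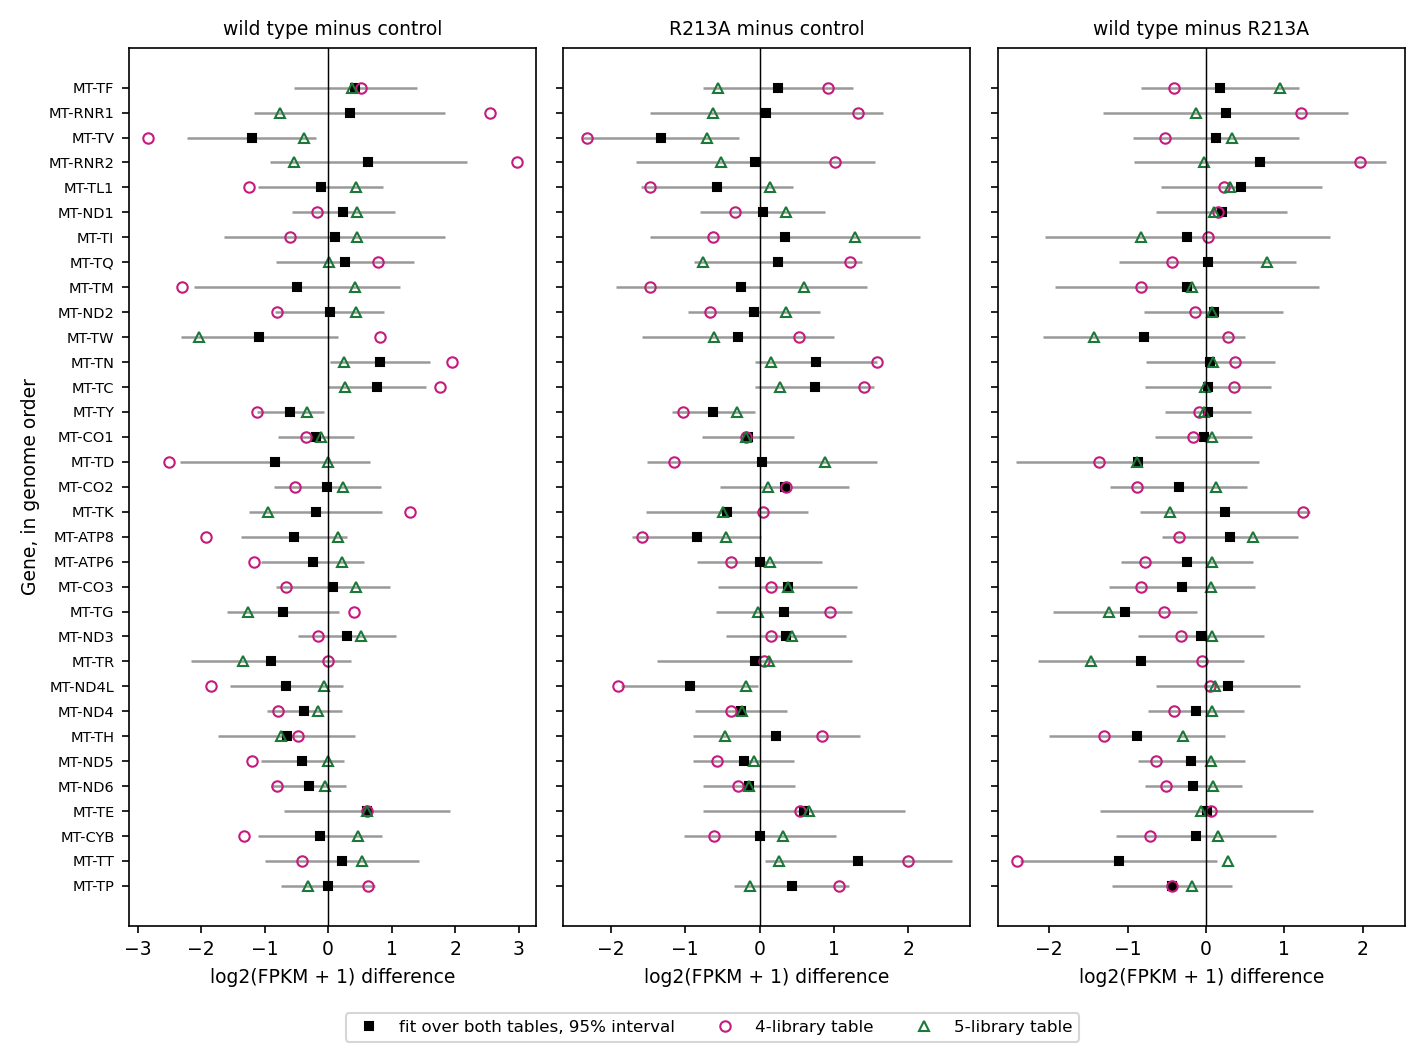
Log2(FPKM + 1) differences of the 33 tested mitochondrial genes in genome order, 1 panel per comparison, with squares and bars for the fit over both tables and its 95% interval, circles for the 4-library table and triangles for the 5-library table. Most bars cross 0, and for MT-RNR2 the circle and the triangle lie on opposite sides of 0 in each panel.

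The 2 tables could also be set beside each other, within the limit that they may have been scaled separately. FPKM ranges that did not overlap were found for 1 of 33 genes higher in the 4-library table, MT-TH, beside 23.7% of all genes, and for 2 of 33 higher in the 5-library table, MT-TY and MT-ND4L, beside 30.3% of all genes. Shares of the protein-gene reads, which need no scaling between libraries, did not overlap for 3 of 13 protein genes higher in the 4-library table. These were MT-CO2, MT-CO3 and MT-ND6. For 1 of 13, MT-ND4L, the shares did not overlap and were higher in the 5-library table. This measure exists for the 13 protein genes alone, so no share of all genes stands beside these counts. MT-ND4L thus held 1.98% to 2.67% of the protein-gene reads in the 5-library table and 0.284% to 1.26% in the 4-library table. The tables hold different mixes of matrices, so table and matrix are partly confounded in these values.

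**Figure D5:**
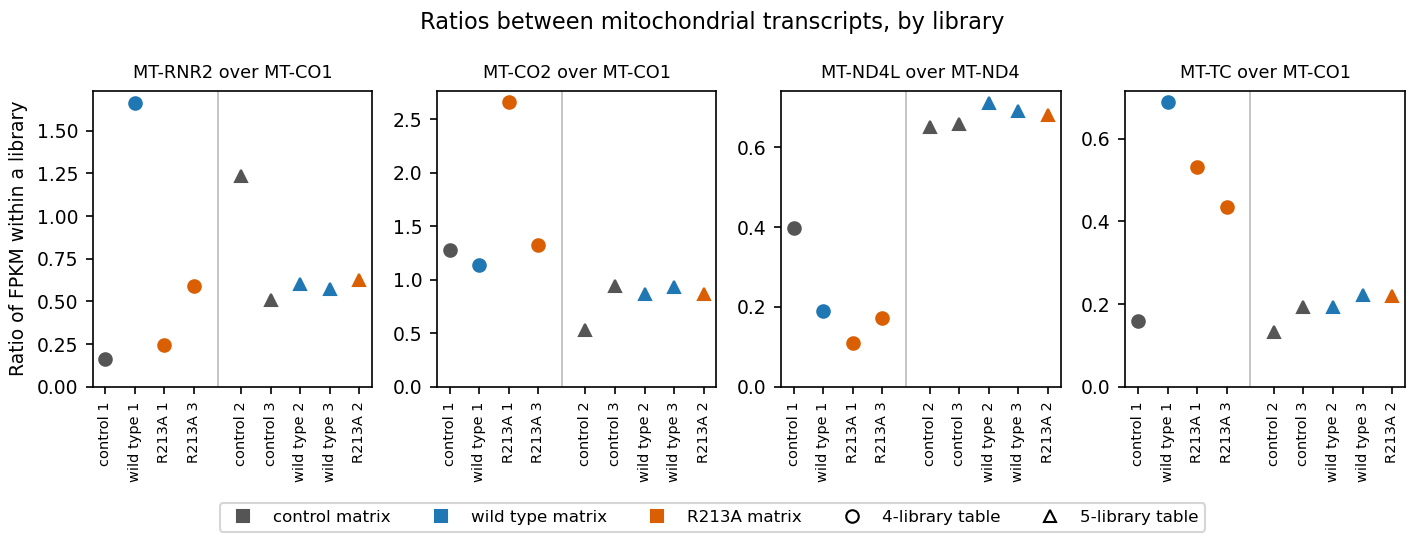
Ratio of FPKM within a library for 4 pairs of mitochondrial transcripts, 1 point per library, on linear axes from 0, with the 4-library table left of each grey line. MT-RNR2 over MT-CO1 spans 0.165 to 1.66, MT-ND4L over MT-ND4 is 0.651 or higher in each library of the 5-library table and 0.397 or lower in the other, and MT-TC over MT-CO1 is highest in wild type 1, R213A 1 and R213A 3.

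Reads of the mitochondrial genes can be shared with near-identical nuclear copies, and the sources used here do not say how the counting treated them. The tables hold 417 genes named as nuclear copies, picked by symbol without comparing their sequences, so not all need be near-identical. Of these, 367 had 0 reads and 3 had a mean of at least 1 FPKM, all on chromosome 1. MTATP6P1 was at 201, 99.4 and 139.6 FPKM in control, 89.2, 138 and 144 in wild type and 118, 120.2 and 160.1 in R213A. MTND2P28 was at 40.1, 22.2 and 57.1 FPKM in control, 9.07, 58.4 and 51.1 in wild type and 6.57, 51.7 and 13.1 in R213A, lowest in R213A 1, wild type 1 and R213A 3, which were also among the 4 low libraries of MT-ND2. MTCO1P12 had a mean of 8.18 FPKM. All 417 copies together held reads equal to 0.401% to 0.887% of those on the mitochondrial genome, and how far this touches the levels of MT-ATP6, MT-ND2 and MT-CO1 was not tested.

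Nuclear genes that serve the mitochondrial genome were taken from lists, and none of their members was called in any comparison, at the same limma threshold. For transcription and DNA maintenance 20 of 20 members were measured, with medians of -0.01 for wild type against control and 0.02 for R213A against control. TFAM, which packages the mitochondrial DNA and helps to start its transcription, was at 25.0, 23.0 and 23.7 FPKM in control, 9.96, 23.5 and 23.7 in wild type and 11.3, 23.8 and 16.4 in R213A. It was low in wild type 1, R213A 1 and R213A 3 and even across the other 6 libraries. POLG, the member of smallest p in this list, and DNA2 were also lowest in those 3 libraries. SSBP1 of the same list went the other way. It was at 24.0, 32.7 and 27.8 FPKM there and at 21.4 or less elsewhere. SLIRP, which binds and stabilizes mitochondrial mRNAs, was at 32.6, 8.59 and 9.02 FPKM in control, 41.5, 10.4 and 11.5 in wild type and 90.5, 11.3 and 45.0 in R213A, with all 4 libraries of the 4-library table above the other 5. Such a split by table, in the same direction, was found for 23.7% of all genes tested. The R213A against control difference of SLIRP, 0.67, had an unadjusted limma p of 0.0355 and an adjusted p of 0.690. The 33 measured genes of RNA processing and decay had medians of -0.03 and 0.04, the 16 translation factors 0.03 and 0.06, the 14 quality control genes -0.06 and -0.04 and the 7 measured biogenesis regulators -0.20 and -0.26, in the same order of comparisons, beside -0.03 and -0.02 for all genes tested.

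For R213A against control, the nuclear subunits of the same complexes had other medians than the mitochondrial mRNAs. The pooled median of the 13 mitochondrial mRNAs was -0.08, and those of the nuclear subunits were 0.41 for complex I (34 measured), 0.37 for complex III (9), 0.43 for complex IV (11) and 0.40 for ATP synthase (17). Those nuclear medians were 0.72, 0.72, 0.88 and 0.64 in the 4-library table and between -0.06 and 0.01 in the 5-library table. For wild type against control the pooled medians were -0.19 for the mitochondrial mRNAs and 0.11, 0.0030, 0.07 and 0.03 for the nuclear subunits, in the same order of complexes. COX8A, a nuclear subunit of complex IV, was at 315, 133 and 141 FPKM in control, 338, 129 and 147 in wild type and 977, 141 and 445 in R213A, highest in R213A 1. The cytosolic ribosomal proteins, which have no part in these complexes, had a median of 0.40 for R213A against control, with 0 of 81 called. By table it was 1.00 (4 libraries) and -0.12 (5 libraries), and 0 of 81 were higher in both. The difference between the nuclear and mitochondrial medians was not tested.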

How the data were processed

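RNA of 9 libraries was measured by sequencing after poly(A) selection, with a TruSeq stranded mRNA kit and about 500 ng of TRIzol-extracted total RNA per the labels' protocols. The authors deposited FPKM values per gene in 2 tables. The submitters' processing notes name hg38 and bcl2fastq, while for the aligner, counter, strand setting and annotation release the entry is: not given in the sources used here. Samples were grouped by their labels. The members and gene lists were chosen with earlier results of these data known.

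FPKM values are not counts, so levels were compared with limma 3.58.1 in R 4.3.3 on log2(FPKM + 1), with group and table as terms and a mean-variance trend, for the 11193 genes whose mean reached 1 FPKM. All 9 libraries entered the fit, which left 5 residual degrees of freedom. The Benjamini-Hochberg adjustment ran over all genes tested, with a threshold of 0.05. Within-table differences are differences of mean log2 values. Tables and figures were made with Python 3.11.15. The fit was tested on simulated data with 200 changed genes. Whole reads, recovered from FPKM and gene length, gave the shares and were tested with limma-voom as an alternative. Other alternatives changed the pseudocount, filter, scaling, spread model, table term, libraries and replicate block. The text names all protein, rRNA and measured tRNA genes and the mitochondrial members at an unadjusted p under 0.05. Of each other list except the cytosolic ribosomal proteins, up to 4 members of smallest p were drawn up. The results name only some of these, as examples and not by a rule. Left out there were, among others, DDX28, MTRES1, AFG3L2, LONP1, ESRRA, YY1 and GABPA. Each of these had an unadjusted limma p under 0.05 in a comparison, and none was called. No column of the tables was left out.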

Additional observations from a re-analysis of the deposited data

How the results depend on the processing

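The verdict of 0 mitochondrial genes called held in each comparison under every alternative run over both tables, limma-voom on recovered reads included, and in the 5-library table alone. With no filter on mean FPKM 1 gene of all was called in wild type against control and 1 in R213A against control. In the 4-library table alone, a fit with 1 residual degree of freedom in which a lone library is taken to vary as the pair does, 782 genes were called for wild type against control, 182 for R213A against control and 323 between the CPXM2 matrices, and in that order 5, 5 and 2 mitochondrial genes. The mitochondrial medians for the first and last were -0.47 and -0.35. In the 5-library table without control 2, an alternative chosen after seeing the data, 18, 17 and 3 genes were called, of which 1 was mitochondrial (MT-TW, wild type against control), and the mitochondrial median for R213A against control was -0.27. In that fit control 3 alone stood for control, and MT-TW had 2 reads in it against 0 in wild type 2 and in wild type 3. These counts lie within the 3 reads that a gene at 0 may reach by counting error. Leaving out single libraries, 0 mitochondrial genes were called each time, and the medians ran from -0.36 to -0.04, from -0.11 to 0.09 and from -0.22 to 0.12.

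Signs that turned, among genes whose difference exceeded its SE, were these. For wild type against control, the 4-library table alone gave MT-TR 0.00031, MT-TG 0.41 and MT-TW 0.82, the 5-library table alone MT-ATP8 0.15, and that table without control 2 MT-TC -0.0470 and MT-TE -0.47. For R213A against control, the 5-library table alone gave MT-TP -0.13 and MT-TL1 0.14, and without control 2 MT-TC -0.0366 and MT-TN -0.0693. For wild type against R213A, the 4-library table alone gave MT-TW 0.29 and the 5-library table MT-TT 0.28 with and without control 2. Leaving out single libraries moved MT-TP between -0.0490 and 0.75 and MT-TL1 between -1.08 and 0.16 for R213A against control. The cause of these turns was not tested.

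Deviations of libraries from their group means correlated by table: every pair of libraries of different groups was, within 1 table, positive (0.31 to 0.84) and, across the tables, negative (-0.86 to -0.34), same-numbered or not. The deviations of a group cancel out and the table was not removed first, so positive values within tables bring negative ones across them. Same-numbered pairs thus ran from -0.70 to 0.84, not all above 0.1, and no pairing was used in the main fit. R213A 3 lies in another table than control 3 and wild type 3, and its pairs with them were at -0.65 and -0.70. Its pairs with control 1 and wild type 1, in its own table, were at 0.66 and 0.74. A pairing by number within a table, beside the split by table, was not tested, and these correlations cannot exclude it. With the replicate block 0 genes were called in each comparison, and the mitochondrial medians were -0.13, 0.05 and -0.18. As shares of summed FPKM, which weigh short genes more, the 37 genes held 6.60% to 9.65% of a library. Counting error limits the tRNA genes with few reads, and the spread between libraries limits the rest.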
